A study of Mus musculus with 12 samples.

Results

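Livers from 4 mice given metformin in the MCD+HF diet (MCD+HF+Met) were compared with livers from 4 mice on normal chow (NC), which is 8 of the 12 arrays in the series. The MCD+HF diet is a high fat diet without methionine and choline, and metformin was mixed into it at 0.1%. The remaining 4 arrays came from mice on the MCD+HF diet without the drug, and their values are given beside the comparison. All were C57BL/6 mice that entered the study when 8 weeks old and were fed for 8 weeks, the livers are labelled as fasting, and each mouse had 1 array. The NC mice received neither the diet nor the drug, so the differences below belong to both together. The question is which transcripts stayed abnormal in treated mice and which were level with chow.

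Methionine and choline are needed to make phosphatidylcholine, the phospholipid that coats the very low density lipoproteins in which the liver exports fat. Without them fat accumulates in hepatocytes, and inflammation and fibrosis follow, which makes such a diet a model of nonalcoholic steatohepatitis. Metformin is a glucose-lowering drug of type 2 diabetes that acts on the liver and is known for its effects on respiratory complex I and on the energy sensor AMPK. In such a liver the transcripts of hepatocytes, of inflammatory cells and of matrix-producing stellate cells are measured together.

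A transcript was measured by several short probes, together called a probe set, whose summarised signal is on a linear scale and which the authors scaled to an average of 100 on every array. Differences are given as MCD+HF+Met minus NC in mean log2(signal + 10), and a difference of 1 corresponds to a 2-fold change for bright probe sets and understates it for dim ones. A probe set was called when its limma adjusted p was under 0.05, in 1 model of all 3 groups. It was termed level with NC when the 95% confidence interval of its difference lay wholly within 1.5-fold in either direction. For counts by gene, the brightest tested probe set stood for each of 11172 genes. Each p-value rests on how far single mice differ, and 4 mice per group limit the precision of every value.

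The liver label was borne out by hepatocyte transcripts. Alb, albumin, had signals between 15929 and 18414 in NC and between 8099 and 9862 in MCD+HF+Met mice. The summed signal of 19 hepatocyte markers ranged from 219871 to 255810 in NC, from 112912 to 139158 in MCD+HF and from 124732 to 155518 in MCD+HF+Met mice. In whole liver, fewer cells of a type and less RNA per cell cannot be told apart. The 100 brightest probe sets held between 14.2% and 15.7% of all signal in NC and between 9.84% and 11.1% in MCD+HF+Met arrays. Correlations across probe sets had a median of 0.976 between NC arrays, 0.975 between MCD+HF+Met arrays and 0.915 between the groups. As a sign of RNA quality, Actb had a ratio of its 3′ over its 5′ control signal of 1.73 ± 0.14 in NC and 1.73 ± 0.114 in MCD+HF+Met mice (SD, n = 4 each, exact two-sided permutation p = 0.943). The same ratio for Gapdh was 0.71 ± 0.0122 and 0.757 ± 0.0451 (SD, n = 4 each, exact two-sided permutation p = 0.114), where 0.0286 is the smallest p that 4 against 4 can give.

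Of the 22830 probe sets tested, 9057 (39.7%) were called in MCD+HF+Met against NC livers, 5062 higher (22.2%) and 3995 lower (17.5%), and 2179 of the 9057 differed over 2-fold. Level with NC were 9071 probe sets (39.7%), of which 639 were also called because their difference was small but precise, and 5341 were neither called nor level. Counted by gene, 2861 (25.6%) were called higher and 2094 (18.7%) lower, 4659 (41.7%) were level, and the median log2 difference of all genes was 0.06. With each array centred on its median, 45.3% of the called probe sets were higher in place of 55.9%. The signals of the 4 and 4 mice did not overlap for 4442 genes (39.8%).

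Most transcripts that differed on the MCD+HF diet alone still differed with metformin. On the diet alone 5403 genes (48.4%) were called against the same NC arrays, which the 2 comparisons share, 3049 (27.3%) higher and 2354 (21.1%) lower, and 4380 (39.2%) were level. Of the 3049, 2229 (73.1%) were still called higher with metformin and not level, and 451 (14.8%) were level. Of the 2354, 1561 (66.3%) were still called lower and not level, and 604 (25.7%) were level, 155 of them also called lower. Genes that had moved far were seldom level. Of 1067 genes called higher over 2-fold on the diet, 966 (90.5%) were still called and 8 were level, and of 540 called lower over 2-fold, 518 (95.9%) were still called and 2 were level.

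**Figure D1:**
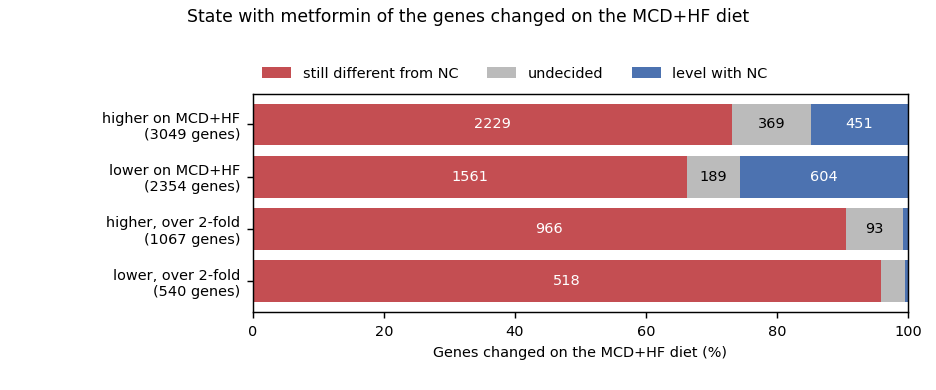
State in MCD+HF+Met livers of the genes called on the MCD+HF diet against NC, by direction and for all called genes or those over 2-fold; the horizontal axis is the percentage of these genes and the numbers are genes. Still different (red) means called in the same direction and not level, level (blue) means within 1.5-fold of NC, and grey is neither: 2229 of 3049 higher genes and 1561 of 2354 lower genes were still different.

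The 10 genes that were over 2-fold from NC on the diet and level with metformin are Cd300c2, Cybb, Evi2a, Impact, Mpeg1, Pirb, Ptprc and Rgs1, higher on the diet, and Slco2a1 and Tmie, lower on it. Ptprc encodes CD45, the surface phosphatase of all leukocytes. Its signals were 160, 190, 182 and 158 in NC, and 188, 142, 215 and 187 in MCD+HF+Met mice, against a mean of 425 on the MCD+HF diet. The NC and MCD+HF+Met mice overlapped, with a log2 difference of 0.07 (95% interval -0.26 to 0.40). Cybb, the catalytic subunit of the phagocyte NADPH oxidase, had signals of 148, 155, 133 and 100 in NC and 136, 107, 152 and 134 in MCD+HF+Met mice, against a mean of 398 on the diet. Its log2 difference from NC was -0.01 (95% interval -0.48 to 0.46), and its other probe sets, at -0.34 and 0.22, were neither called nor level. Slco2a1, the prostaglandin transporter, had signals of 339 to 458 in NC and 342 to 382 in MCD+HF+Met mice, against a mean of 180 on the diet, and its log2 difference was -0.19 (95% interval -0.46 to 0.09). On its other probe sets Slco2a1 was not uniformly level, and one was called lower (-0.57, limma adjusted p = 0.0093). Without one or another single mouse Cybb, Evi2a, Impact, Mpeg1, Rgs1 and Tmie were no longer level, and Impact was called higher without MCD+HF+Met mouse 4 (0.37, limma adjusted p = 0.0479).

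Among transcripts of proteins that hepatocytes secrete into plasma, those of complement stayed low, and other groups were less uniform. Complement, the cascade of plasma proteins that marks and lyses microbes, was the lowest of these groups by its median: of 19 measured complement genes of hepatocytes, 18 were called lower, 0 higher and 1 was level, with a median log2 difference of -1.42. C8a, a chain of the membrane attack complex, had signals of 7598, 7487, 7581 and 6264 in NC and 594, 518, 491 and 980 in MCD+HF+Met mice. All treated mice were far under all chow mice, with a log2 difference of -3.52 (standard error 0.18, limma adjusted p = 1.48e-09). C6, another part of that complex, differed by -4.26 (limma adjusted p = 1.2e-10) and C8b by -4.10 (limma adjusted p = 3.91e-09). Mbl2, the mannose-binding lectin that starts the lectin pathway, had signals of 4235, 4307, 4192 and 4355 in NC and 366, 530, 674 and 546 in MCD+HF+Met mice, against a mean of 76 on the diet. Its treated mice lay between the other groups without overlap, at a log2 difference from NC of -3.02 (standard error 0.15, limma adjusted p = 8.18e-10). C4bp, an inhibitor of the cascade, was the level member, with NC signals of 3866 to 5566 and MCD+HF+Met signals of 3136 to 5363 that overlapped. It was no longer level after median centring or without any one of MCD+HF+Met mice 1 and 4 and NC mouse 4 (log2 differences -0.26 to -0.35).

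Coagulation and carrier proteins followed to a lesser degree, and for the brightest of them the size depended on the scaling. Of 26 coagulation and fibrinolysis genes, 21 were called lower, 1 higher and 3 were level (median log2 difference -0.89, and -0.37 after quantile normalization). Plg, plasminogen, was lower by a log2 difference of -1.30 (limma adjusted p = 2.38e-08) and F11, coagulation factor XI, by -1.79 (limma adjusted p = 6.61e-08). The member called higher was Plat, tissue plasminogen activator, with signals of 7.8 to 23.5 in NC and 121 to 190 in MCD+HF+Met mice (log2 difference 2.68, limma adjusted p = 2.68e-07). Of 28 plasma carriers and apolipoproteins, 19 were called lower, 3 higher and 4 were level, with a median log2 difference of -0.76, whereas after quantile normalization 9 were lower, 8 higher and 14 level, with a median of -0.01. The same held for the 19 hepatocyte markers, of which 16 were called lower (median -0.76) but 4 after quantile normalization, which called 2 higher (median -0.04). Alb differed by -0.92 (limma adjusted p = 6.6e-07) and by -0.04 after quantile normalization. Fetub, a liver-secreted protease inhibitor, was lower by a log2 difference of -1.55 (limma adjusted p = 9.28e-08). Apoa4, an apolipoprotein that rises when the liver stores fat, was higher, with signals of 464 to 3074 in NC and 6254 to 8210 in MCD+HF+Met mice that did not overlap, with NC mouse 3 well above the other chow mice (log2 difference 2.57, limma adjusted p = 3.84e-05). Apoa5, a regulator of plasma triglyceride, was level, with signals of 7179 to 8802 in NC and 7538 to 8433 in MCD+HF+Met mice, although after quantile normalization it was higher (0.52).

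Apob and Mttp, genes of lipoprotein export that the study names, lay between NC and the diet group. Apob, the structural protein of very low density lipoproteins, had signals of 10558 to 12195 in NC and 7683 to 8878 in MCD+HF+Met mice. Its log2 difference was -0.48 (limma adjusted p = 0.00038), but 0.19 in the other direction after quantile normalization, and its other probe set had -0.20 (limma adjusted p = 0.41). Mttp, which loads lipid onto it, was level, with signals of 1762 to 1824 in NC and 1280 to 1642 in MCD+HF+Met mice and a log2 difference of -0.23 (95% interval -0.43 to -0.03, limma adjusted p = 0.0633). Its other probe set was called lower and not level (-0.44, limma adjusted p = 0.0271), and the brightest was called after median centring (limma adjusted p = 0.038) and without MCD+HF+Met mouse 4 (0.0448). The groups of Mttp did not overlap, and its mean on the MCD+HF diet was lower still, at a log2 difference of -0.56.

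The 3 largest falls of the 11172 genes, those of Hsd3b5, Slco1a1 and Mup10, were in genes that male mouse livers express under pulsed growth hormone. The labels give no sex, so these are sets of genes known to differ between male and female livers. Of 24 male-typical and growth hormone axis genes, 21 were called lower, 2 higher and 1 was level (median log2 difference -2.28), and of 14 female-typical genes, 11 were called higher, 1 lower and 0 level (median 2.66). Hsd3b5, a steroid reductase of male liver, had signals of 3377, 2825, 2456 and 2923 in NC and 9.1, 14.1, 2.5 and 5.0 in MCD+HF+Met mice. It is near the floor of the array in every treated mouse, with a log2 difference of -7.40 (standard error 0.20, limma adjusted p = 1.06e-12). Slco1a1, an organic anion transporter, had signals of 1943, 1922, 1503 and 2289 in NC and 9.1, 2.7, 4.7 and 2.4 in MCD+HF+Met mice (log2 difference -7.04, limma adjusted p = 2.73e-11). Elovl3, an elongase of fatty acids, differed by -4.42 (limma adjusted p = 2.71e-09), and Cyp4a12a, which hydroxylates fatty acids, by -4.13 (limma adjusted p = 1.22e-09). Cyp4a12a was lower with metformin than on the diet alone, where its log2 difference from NC was -2.86. Mup10, a major urinary protein, differed by -6.33 (limma adjusted p = 6.75e-09). Members of the Mup, Cyp2c and Cyp2b families are near-identical, so their probe sets can read relatives.

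In the other direction, Cyp2b9 had signals of 15.7, 10.6, 18.1 and 15.9 in NC and 1115, 1102, 1244 and 698 in MCD+HF+Met mice. This female-typical cytochrome was low in every chow mouse and bright in every treated one, with a log2 difference of 5.36 (standard error 0.18, limma adjusted p = 1.46e-11). Sult1e1, the estrogen sulfotransferase, had the largest rise of the 11172 genes at a log2 difference of 5.65 (standard error 0.41, limma adjusted p = 5.23e-08). Its signals were 4.1, 1.2, 20.1 and 0.9 in NC and 989, 640, 318 and 1522 in MCD+HF+Met mice. Cyp3a44, a steroid hydroxylase, differed by 4.45 (limma adjusted p = 9.9e-09). Cux2, a transcription factor of female liver, was the member called lower (log2 difference -0.63, limma adjusted p = 0.0322), but its signals overlapped at 35.7 to 77.1 in NC and 24.2 to 45.5 in MCD+HF+Met mice, and it lost its call without any one of 5 mice, 2 on NC and 3 on MCD+HF+Met. Socs2, which damps growth hormone signalling, was called higher on 3 probe sets (log2 differences 1.97, 2.39 and 1.48, limma adjusted p = 1.94e-05, 6.71e-05 and 3.93e-05) and not on a further one (0.07, limma adjusted p = 0.805).

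**Figure D2:**
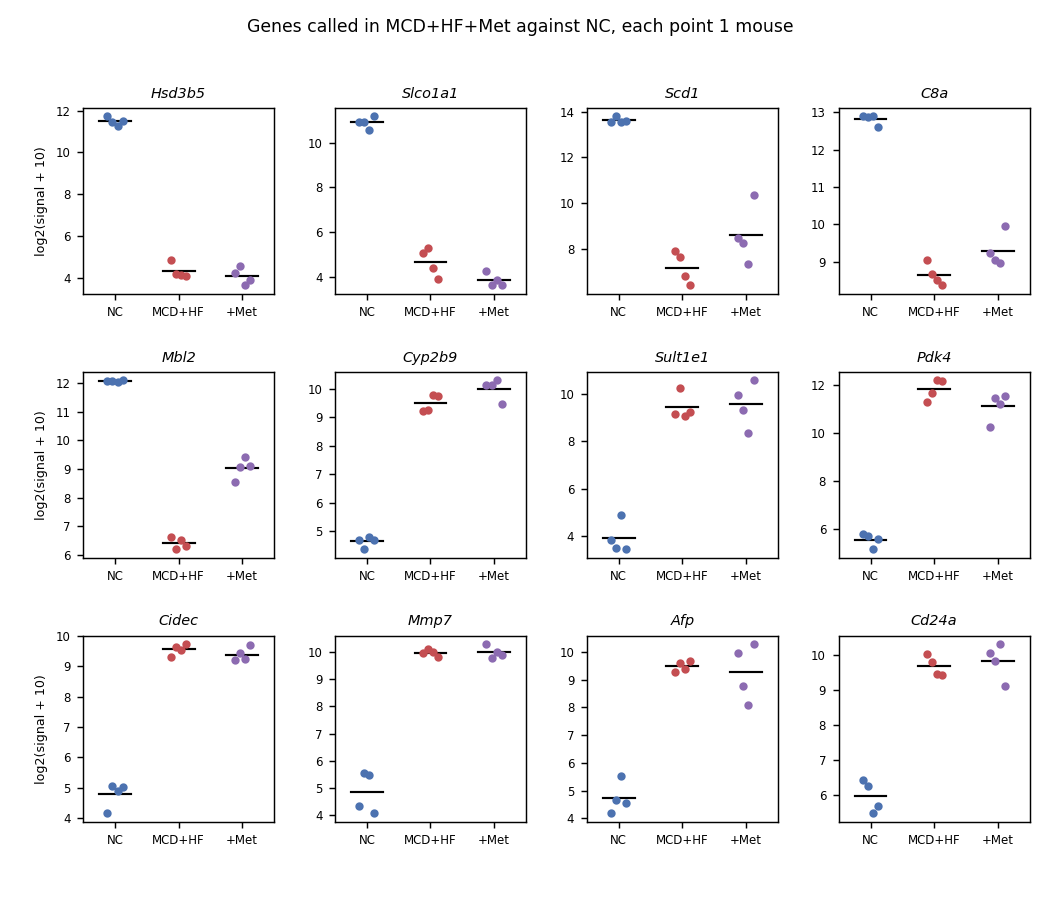
log2(signal + 10) of 12 genes called in MCD+HF+Met against NC livers; each point is 1 mouse, the black line is the mean of 4 mice, and each panel has its own vertical axis. The treated mice lay close to the MCD+HF mice and far from NC for Hsd3b5 (log2 difference from NC -7.40) and Cyp2b9 (5.36), while Mbl2 lay between them.

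Enzymes that clear drugs, steroids and bile acids stayed low as a group. Of 31 cytochromes P450 of drug and steroid metabolism, 20 were called lower, 7 higher and 4 were level (median log2 difference -0.71, and -0.47 after quantile normalization). Cyp2c54 had signals of 2507, 3209, 3106 and 3798 in NC and 27.3, 37.0, 38.4 and 19.8 in MCD+HF+Met mice (log2 difference -6.30, limma adjusted p = 1.06e-12), with every treated mouse far under every chow mouse. Cyp2e1, which oxidises ethanol, differed by -0.71 (limma adjusted p = 6.7e-06) but by 0.16 in the other direction after quantile normalization. Of 38 conjugating enzymes, which attach glutathione, glucuronide or sulfate, 23 were called lower, 5 higher and 4 were level (median -0.79, and -0.49 after quantile normalization). Gstm3, a glutathione transferase, was among the higher ones with signals of 367 to 487 in NC and 1505 to 3042 in MCD+HF+Met mice (log2 difference 2.37, limma adjusted p = 7.65e-08). Of 15 bile acid synthesis genes, 11 were called lower, 0 higher and 3 were level (median -1.05, and -0.68 after quantile normalization). Cyp7b1, the oxysterol hydroxylase of that pathway, had signals of 6300, 7004, 7450 and 5181 in NC and 366, 371, 357 and 176 in MCD+HF+Met mice (log2 difference -4.36, limma adjusted p = 8.9e-10). Slc10a1, the sodium-coupled uptake carrier of bile acids, differed by -1.51 (limma adjusted p = 0.000208), and Abcc4, an export pump toward the blood, by 2.67 (limma adjusted p = 6.86e-08). Abcc2, the canalicular export pump, was level, with signals of 1400 to 1510 in NC and 1187 to 1936 in MCD+HF+Met mice that overlapped.

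Fat handling was mixed, and its lists held called genes in both directions. Scd1, stearoyl-CoA desaturase, had signals of 11960, 14200, 11931 and 12472 in NC and 353, 297, 154 and 1324 in MCD+HF+Met mice. All treated mice were under all chow mice, 1 of them well above the rest, with a log2 difference of -5.00 (standard error 0.46, limma adjusted p = 5.11e-07). Of 23 fatty acid synthesis and desaturation genes, 10 were called higher, 6 lower and 6 were level, and the median of -0.10 became 0.10 after quantile normalization. The other desaturases of the list were called higher, with log2 differences of 1.33 for Scd2, 0.58 for Fads1, 1.11 for Fads2 and 1.46 for Fads3, although other probe sets of Scd2 (0.62, limma adjusted p = 0.102) and Fads1 (0.20, limma adjusted p = 0.52) were not called. Fasn, fatty acid synthase, had signals of 325 to 516 in NC and 157 to 460 in MCD+HF+Met mice, a log2 difference of -0.38 (95% interval -0.98 to 0.21, limma adjusted p = 0.30) that is neither called nor level. Srebf1, the transcription factor that drives this pathway, had signals of 796 to 1164 in NC and 446 to 770 in MCD+HF+Met mice (log2 difference -0.54, limma adjusted p = 0.0409). Without any single NC mouse, or MCD+HF+Met mouse 3 or 4, it was no longer called, with adjusted p between 0.0501 and 0.137.

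Of 32 genes of triglyceride assembly, lipid droplets and fatty acid uptake, 16 were called higher, 3 lower and 4 were level (median log2 difference 0.55). Cidec, which fuses lipid droplets, had signals of 7.9, 23.6, 19.8 and 22.5 in NC and 578, 680, 601 and 818 in MCD+HF+Met mice, low in all chow mice and bright in all treated ones (log2 difference 4.61, standard error 0.18, limma adjusted p = 7.26e-11). Cd36, a fatty acid receptor, had signals of 299 to 394 in NC and 1709 to 2238 in MCD+HF+Met mice (log2 difference 2.53, limma adjusted p = 1.35e-10). Plin5, which coats droplets and ties them to mitochondria, differed by 1.53 (limma adjusted p = 4.78e-06). Dgat2, which makes triglyceride, was level, with signals of 2132 to 2833 in NC and 2042 to 2334 in MCD+HF+Met mice.

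Pdk4, the kinase that shuts pyruvate dehydrogenase when fat is burned, had signals of 44.0, 41.1, 25.1 and 36.9 in NC and 1224, 2824, 2377 and 2947 in MCD+HF+Met mice (log2 difference 5.59, standard error 0.25, limma adjusted p = 3.34e-10). No treated mouse came near a chow mouse. It is one of 36 genes of fatty acid oxidation and ketone synthesis, of which 13 were called higher, 13 lower and 14 were level, 5 of these also called, with a median log2 difference of 0.09. Acadm, the medium-chain acyl-CoA dehydrogenase, was level with signals of 3373 to 4016 in NC and 3496 to 3667 in MCD+HF+Met mice (log2 difference -0.04, 95% interval -0.21 to 0.14). Cpt2, which reloads fatty acids onto coenzyme A in the mitochondrion, was also level, with a difference of 0.03 (95% interval -0.24 to 0.29). Acad11, another acyl-CoA dehydrogenase, was lower at -1.15 (limma adjusted p = 9.76e-06). After quantile normalization 20 of the 36 were called higher and 6 lower.

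Cholesterol synthesis and uptake genes were called higher in 11 of 20 cases, lower in 3 and level in 1 (median log2 difference 0.64). Sqle, squalene epoxidase, had signals of 133, 69.7, 357 and 72.5 in NC and 1100, 485, 417 and 368 in MCD+HF+Met mice. The groups did not overlap, and NC mouse 3 and MCD+HF+Met mouse 1 stood above their groups (log2 difference 2.00, limma adjusted p = 0.000847). Tm7sf2, a sterol reductase of the same pathway, went the other way, with signals of 863 to 953 in NC and 177 to 216 in MCD+HF+Met mice (log2 difference -2.22, limma adjusted p = 1.81e-09).

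Amino acid breakdown stayed low. Of 41 genes, 29 were called lower, 1 higher and 7 were level (median log2 difference -0.71). Haao, which opens the ring of a tryptophan metabolite, had signals of 2104, 2135, 1935 and 2387 in NC and 363, 428, 406 and 380 in MCD+HF+Met mice, all treated mice under all chow mice (log2 difference -2.41, standard error 0.09, limma adjusted p = 7.26e-11). Hal, the histidine-degrading enzyme, differed by -2.40 (limma adjusted p = 3.27e-08). The gene called higher was Gpt2, a mitochondrial alanine transaminase, with signals of 1575 to 2504 in NC and 3171 to 3766 in MCD+HF+Met mice (log2 difference 0.83, limma adjusted p = 5.44e-05). Of 10 urea cycle and ammonia handling genes, 6 were called lower, 0 higher and 2 were level (median -0.63), and after quantile normalization 4 were lower and 3 level (median -0.26). Otc, ornithine transcarbamylase, had signals of 5155 to 6185 in NC and 881 to 1257 in MCD+HF+Met mice (log2 difference -2.42, limma adjusted p = 1.19e-09).

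The diet withholds methionine and choline, and the genes that use them did not move as 1 block. Of 25 genes of the methionine cycle, transsulfuration and one-carbon metabolism, 14 were called lower, 4 higher and 6 were level (median log2 difference -0.45). Gnmt, which disposes of methyl groups from S-adenosylmethionine, had signals of 11082, 12738, 12086 and 11112 in NC and 3769, 3317, 3444 and 3995 in MCD+HF+Met mice without overlap (log2 difference -1.69, limma adjusted p = 6.17e-08). Bhmt, which returns homocysteine to methionine with betaine, differed by -1.34 (limma adjusted p = 4.52e-06). Of 19 genes of choline, betaine and phosphatidylcholine metabolism, 10 were level, 5 called lower and 3 higher (median -0.08, and 0.01 without MCD+HF+Met mouse 3). Chdh, choline dehydrogenase, was level with signals of 1489 to 1598 in NC and 1392 to 1868 in MCD+HF+Met mice, as was Pcyt1a, the regulated enzyme of phosphatidylcholine synthesis, with a log2 difference of -0.07 (95% interval -0.33 to 0.20), although one of its other probe sets was neither called nor level (-0.21). Chka, choline kinase, was called higher, with signals of 36.9 to 65.6 in NC and 168 to 198 in MCD+HF+Met mice (log2 difference 1.55, limma adjusted p = 2.24e-06).

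**Figure D3:**
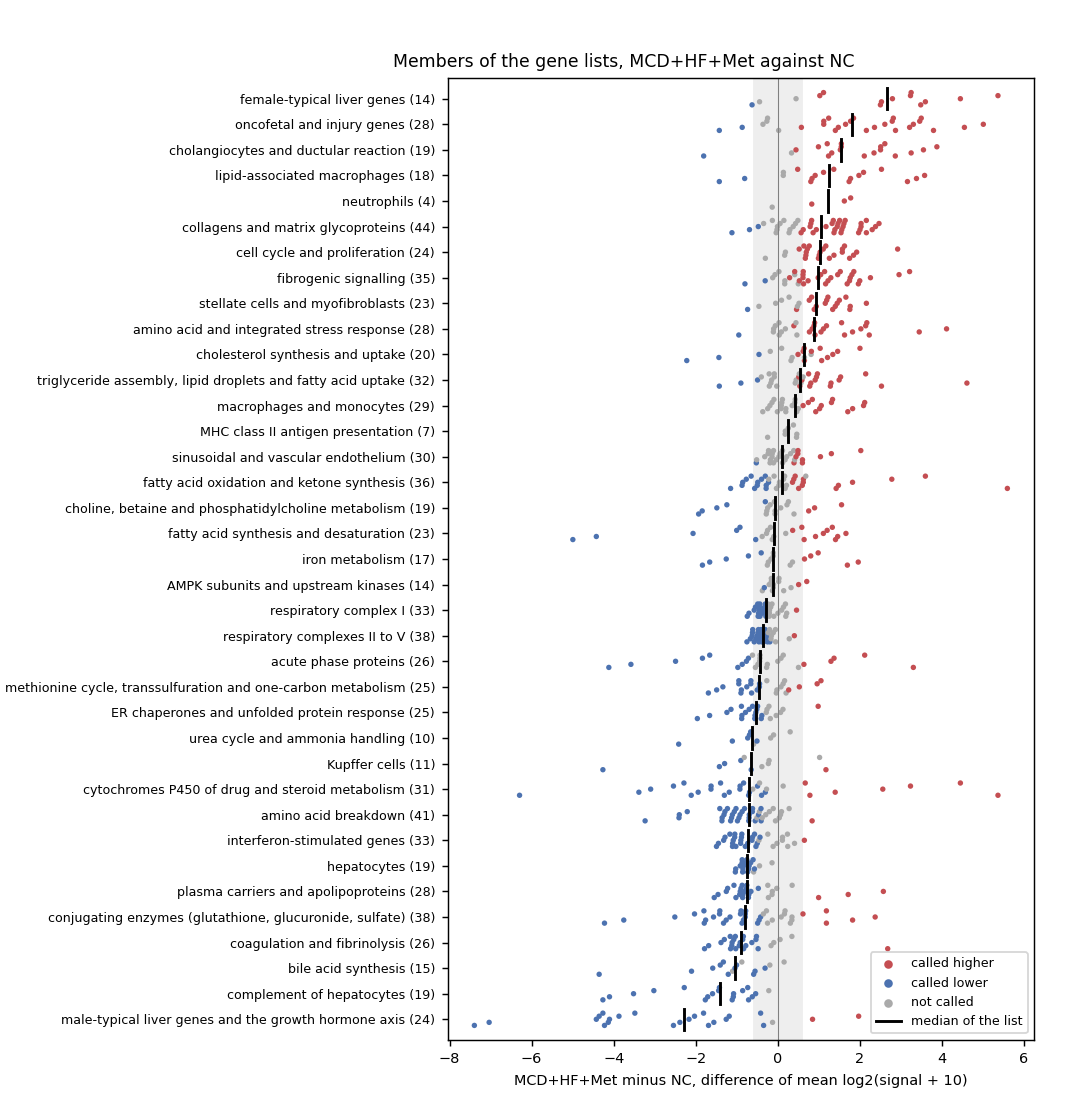
Log2 difference of MCD+HF+Met minus NC livers for every measured member of the gene lists, with the number measured in brackets; each point is 1 gene, red called higher, blue called lower and grey not called, the black line is the median of the list, and the grey band is 1.5-fold. Female-typical genes (median 2.66) stand at one end and male-typical genes (median -2.28) at the other.

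Genes of the amino acid and integrated stress response were higher. This response is set off when amino acids run short or proteins misfold, and its transcription factor ATF4 raises amino acid synthesis, transport and damage genes. Of 28 measured genes, 18 were called higher, 1 lower and 7 were level (median log2 difference 0.89), against 16 called higher on the MCD+HF diet alone (median 0.56). Between MCD+HF+Met and MCD+HF livers 3 of the 28 were called higher and 1 lower, with a median log2 difference of 0.16. Nupr1, a nuclear protein of stressed cells, had signals of 8.5, 18.5, 23.1 and 15.9 in NC and 477, 522, 377 and 391 in MCD+HF+Met mice, against a mean of 106 on the diet. It was above both other groups in every treated mouse, with a log2 difference of 4.11 from NC (standard error 0.28, limma adjusted p = 2.38e-08) and of 2.10 from the diet (limma adjusted p = 0.00117). Psat1, an enzyme of serine synthesis, had signals of 2.2 to 30.1 in NC and 157 to 315 in MCD+HF+Met mice (log2 difference 3.44, limma adjusted p = 1.67e-07). Aldh18a1, which starts proline synthesis, differed by 2.17 (limma adjusted p = 4.12e-08), and one of its other probe sets was not called (0.55, limma adjusted p = 0.0921). Asns, asparagine synthetase, had signals of 219, 92.4, 581 and 51.6 in NC and 943, 770, 511 and 1050 in MCD+HF+Met mice. Its groups overlapped through NC mouse 3 (log2 difference 2.23, limma adjusted p = 0.00209). Cebpb, a partner of ATF4, and Ppp1r15a, which ends the response, were level, with differences of 0.03 (95% interval -0.34 to 0.40) and -0.10 (95% interval -0.41 to 0.21), although another probe set of Cebpb was neither called nor level (-0.19).

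The promoters of these genes are shown as a description. In the 250 bases before the start site, both strands were searched for the C/EBP-ATF response element, spelled TTGCATCA, or TGATGCAA on the other strand. Of 29 genes of the list with a promoter in RefSeq (assembly GRCm38.p6), 6 hold it, against 0.918% of all 27025 genes (248). They are Atf3, Chac1, Fgf21, Nupr1, Slc7a11 and Vldlr, and below are 60 bases around the element for the 5 of them that passed the filter, 5′ to 3′ on the gene's strand, with the element in capitals.
Nupr1 (chr7:126625547-126625606, minus strand): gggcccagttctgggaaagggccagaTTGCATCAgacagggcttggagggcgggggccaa
Vldlr (chr19:27216794-27216853, plus strand): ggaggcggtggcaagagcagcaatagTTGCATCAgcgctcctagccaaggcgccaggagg
Fgf21 (chr7:45615596-45615655, minus strand): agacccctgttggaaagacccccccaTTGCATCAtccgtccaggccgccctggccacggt
Atf3 (chr1:191183410-191183469, minus strand): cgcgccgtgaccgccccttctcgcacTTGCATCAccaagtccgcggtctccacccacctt
Chac1 (chr2:119351023-119351082, plus strand): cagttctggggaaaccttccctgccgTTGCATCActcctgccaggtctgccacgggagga
Beside Nupr1, Vldlr, the very low density lipoprotein receptor, was called higher, with signals of 7.0 to 33.2 in NC and 83.2 to 139 in MCD+HF+Met mice (log2 difference 2.14, limma adjusted p = 2.28e-06). Fgf21, a fasting hormone of the liver, had signals of 28.3 to 72.5 in NC and 125 to 270 in MCD+HF+Met mice (log2 difference 1.82, limma adjusted p = 1.59e-05). Atf3, a transcription factor of acute stress, had a log2 difference of 1.63 (limma adjusted p = 4.8e-06), and Chac1, which degrades glutathione, was level with signals of 50.5 to 92.1 in NC and 51.5 to 91.7 in MCD+HF+Met mice, though not without any one of 4 mice. Atf3 and Chac1 are named for their promoters, after their values were seen. A match of these letters is a description and not a site. The list was made of genes known for this response, so its share with the element follows from that choice and was not tested.

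Chaperones of the endoplasmic reticulum, the other arm of the response to misfolded protein, were low. Of 25 genes, 17 were called lower, 1 higher and 7 were level (median log2 difference -0.54). Herpud1, which feeds misfolded protein to degradation, had signals of 4446, 6374, 4544 and 5800 in NC and 1909, 2844, 2373 and 1834 in MCD+HF+Met mice, without overlap (log2 difference -1.24, limma adjusted p = 5.3e-06). Sdf2l1, a chaperone cofactor, differed by -1.66 (limma adjusted p = 2.07e-06). P4hb, protein disulfide isomerase, was level with signals of 5320 to 6464 in NC and 5908 to 6764 in MCD+HF+Met mice, although it was higher after quantile normalization (0.49). Atf6, a sensor of such stress, was called higher on its brightest probe set (log2 difference 0.98, limma adjusted p = 7.32e-05), and on its other probe sets it was not (0.18 and -0.19).

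Matrix genes stayed high. Collagens and glycoproteins build the scar of a fibrotic liver, and activated stellate cells make most of them. Of 44 such genes, 29 were called higher, 3 lower and 5 were level (median log2 difference 1.06, against 1.51 on the MCD+HF diet). Col1a1, a chain of type I collagen, had signals of 18.6, 16.2, 29.1 and 4.6 in NC and 152, 107, 171 and 81.2 in MCD+HF+Met mice, all treated mice above all chow mice (log2 difference 2.38, standard error 0.27, limma adjusted p = 4.7e-06). Col1a2, its partner chain, had signals of 80.6 to 112 in NC and 249 to 418 in MCD+HF+Met mice, against a mean log2 difference of 2.32 on the diet (log2 difference 1.59, limma adjusted p = 2.98e-06). Nid1, a basement membrane protein, differed by 2.47 (limma adjusted p = 2.87e-09). Other probe sets were also called, at 1.19 for Col1a1, 2.81 for Col1a2 and 1.56 for Nid1 (limma adjusted p = 0.000371, 3.78e-07 and 1.43e-06). The members called lower include Col18a1 (log2 difference -0.69, limma adjusted p = 4.53e-05) and Fn1, fibronectin, whose 2 probe sets differed (-0.48, limma adjusted p = 0.00113, and 0.03, limma adjusted p = 0.932).

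Of 35 genes of fibrogenic signalling, 26 were called higher, 2 lower and 6 were level (median log2 difference 0.98, and 0.62 with an offset of 32). Ednrb, an endothelin receptor, had signals of 67.2 to 90.7 in NC and 288 to 344 in MCD+HF+Met mice (log2 difference 1.85, limma adjusted p = 5.07e-06), and Ccn2, connective tissue growth factor, 72.4 to 205 and 302 to 648 (1.80, limma adjusted p = 6.09e-05). Other probe sets of Ednrb were also called but with smaller differences, 0.79 and 0.76 (limma adjusted p = 0.00303 and 0.00277). The inhibitors of matrix breakdown were also higher, with log2 differences of 1.5 for Timp1, 1.94 for Timp2 and 1.03 for Timp3 (limma adjusted p = 2.09e-05, 7.74e-07 and 0.000788), although another probe set of Timp3 was not called (0.23, limma adjusted p = 0.43). Mmp7, matrilysin, which cleaves matrix proteins, differed by 5.14 (limma adjusted p = 1.19e-09). Tgfb1, the main fibrogenic cytokine, was dim, with signals of 15.6 to 45.2 in NC and 45.5 to 63.8 in MCD+HF+Met mice, and its call (log2 difference 0.62, limma adjusted p = 0.0439) was lost under offset 32, no filter or either other scaling, and without single mice (adjusted p up to 0.15). Igfbp3, a carrier of insulin-like growth factors, was likewise near the threshold (log2 difference 0.52, limma adjusted p = 0.0439), as was Hgf, hepatocyte growth factor (0.41, limma adjusted p = 0.0511), and both had overlapping groups. Igfbp3 lost its call under several alternatives and on its other probe set (0.35, limma adjusted p = 0.121), and Hgf gained one under others. Hmox1, heme oxygenase of oxidative stress, was higher, with signals of 65.5 to 102 in NC and 218 to 250 in MCD+HF+Met mice (log2 difference 1.36, limma adjusted p = 6.42e-06).

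Markers of stellate cells and myofibroblasts rose beside the matrix genes: 16 of 23 were called higher, 1 lower and 2 were level (median log2 difference 0.94), and their summed signal ranged from 2975 to 3818 in NC and from 6104 to 8384 in MCD+HF+Met mice. Pdgfrb, the receptor that drives these cells to divide, had signals of 50.6 to 70.2 in NC and 171 to 293 in MCD+HF+Met mice (log2 difference 1.76, limma adjusted p = 3.6e-07), and its other probe set was not called (0.53, limma adjusted p = 0.27). Gfap, a filament of resting stellate cells, was the member called lower (log2 difference -0.74, limma adjusted p = 0.0232), and its call was lost without any one of 3 mice (adjusted p up to 0.0805). Their part in the matrix differences was not tested.

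Genes of the bile duct epithelium and of fetal and injured liver were among the highest. Of 19 cholangiocyte and ductular reaction markers, 17 were called higher, 1 lower and 0 were level (median log2 difference 1.55, against 1.56 on the diet), and their summed signal ranged from 3947 to 6929 in NC and from 10415 to 13234 in MCD+HF+Met mice. Cd24a, a surface antigen of duct and progenitor cells, had signals of 76.8, 66.8, 34.5 and 41.6 in NC and 1069, 917, 1270 and 544 in MCD+HF+Met mice (log2 difference 3.88, standard error 0.25, limma adjusted p = 1.14e-08). Bicc1 differed by 3.55 (limma adjusted p = 1.26e-06), Prom1, a progenitor marker, by 3.25 (limma adjusted p = 6.75e-09) and Epcam, an epithelial adhesion molecule, by 2.86 (limma adjusted p = 4.1e-07). Tff3, a secreted trefoil peptide, was the one called lower (log2 difference -1.81, limma adjusted p = 0.000635). Cftr, the chloride channel of duct cells, was not measured. Of 28 listed markers, 23 had a probe set naming them alone and 19 passed the filter, which a gene dim in NC could pass through the MCD+HF groups.

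Of 28 oncofetal and injury genes, 22 were called higher, 2 lower and 2 were level (median log2 difference 1.81). Afp, the fetal serum protein alpha-fetoprotein, had signals of 8.2, 15.5, 35.7 and 13.4 in NC and 987, 424, 265 and 1234 in MCD+HF+Met mice, without overlap and with a wide spread among treated mice (log2 difference 4.55, standard error 0.38, limma adjusted p = 1.86e-07). Sprr1a, a small proline-rich protein, had signals of 13.3 to 66.7 in NC and 275 to 1129 in MCD+HF+Met mice (log2 difference 3.79, limma adjusted p = 1.4e-05), and on the diet alone its difference from NC was 1.19 (limma adjusted p = 0.0539). Of 24 genes of the cell cycle, 21 were called higher, 0 lower and 1 was level (median 1.02), against 14 called higher and 1 lower on the diet (median 0.79). Between MCD+HF+Met and MCD+HF livers 0 of the 24 were called in either direction. Of 36 listed genes, 35 had a probe set naming them alone and 24 passed the filter, which genes dim in NC could pass through the MCD+HF groups. Ccnd1, cyclin D1 of the first growth phase, had signals of 150 to 212 in NC and 819 to 2123 in MCD+HF+Met mice (log2 difference 2.92, limma adjusted p = 5.86e-07), and Mcm6, part of the replication helicase, differed by 1.92 (limma adjusted p = 1.77e-06). Cdkn1a, the inhibitor p21 that halts the cycle, was also higher, with signals of 23.2 to 27.7 in NC and 157 to 635 in MCD+HF+Met mice (log2 difference 3.33, limma adjusted p = 3.99e-07). Pcna, the replication clamp, was the level member, at 0.17 (95% interval -0.07 to 0.40).

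Some genes of inflammatory cells were level and others stayed high. Of 29 macrophage and monocyte markers, 12 were called higher than NC, 0 lower and 11 were level (median log2 difference 0.42), whereas on the MCD+HF diet 26 were called higher and 2 were level (median 1.43). Among all genes 25.6% were called higher and 41.7% were level with metformin, so the level share of these markers was near that of all genes. On the diet alone 27.3% of all genes were called higher and 39.2% were level. Their summed signal ranged from 6758 to 8323 in NC, from 16584 to 26910 in MCD+HF and from 8574 to 12261 in MCD+HF+Met mice, without overlap between any groups. Mpeg1, the pore-forming protein perforin 2 of macrophages, had signals of 588, 474, 648 and 404 in NC and 530, 450, 670 and 627 in MCD+HF+Met mice, which overlapped (log2 difference 0.11, 95% interval -0.25 to 0.47). Without MCD+HF+Met mouse 2 or NC mouse 3 it was neither called nor level (0.22 each). C1qc, a chain of the complement starter C1q made by macrophages, was level at 0.08 (95% interval -0.27 to 0.43). Itgax, the integrin CD11c, stayed high, with signals of 6.7 to 23.1 in NC and 53.5 to 120 in MCD+HF+Met mice (log2 difference 2.09, limma adjusted p = 2.61e-05). Cx3cr1, a chemokine receptor of monocytes, differed by 1.70 (limma adjusted p = 4.19e-06), and Ccr2, which draws monocytes into tissue, by 1.82 (limma adjusted p = 1.62e-05) on its brightest probe set. Its other probe sets had log2 differences of 0.91, 1.00 and -0.13 (limma adjusted p = 0.016, 0.00928 and 0.798).

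**Figure D4:**
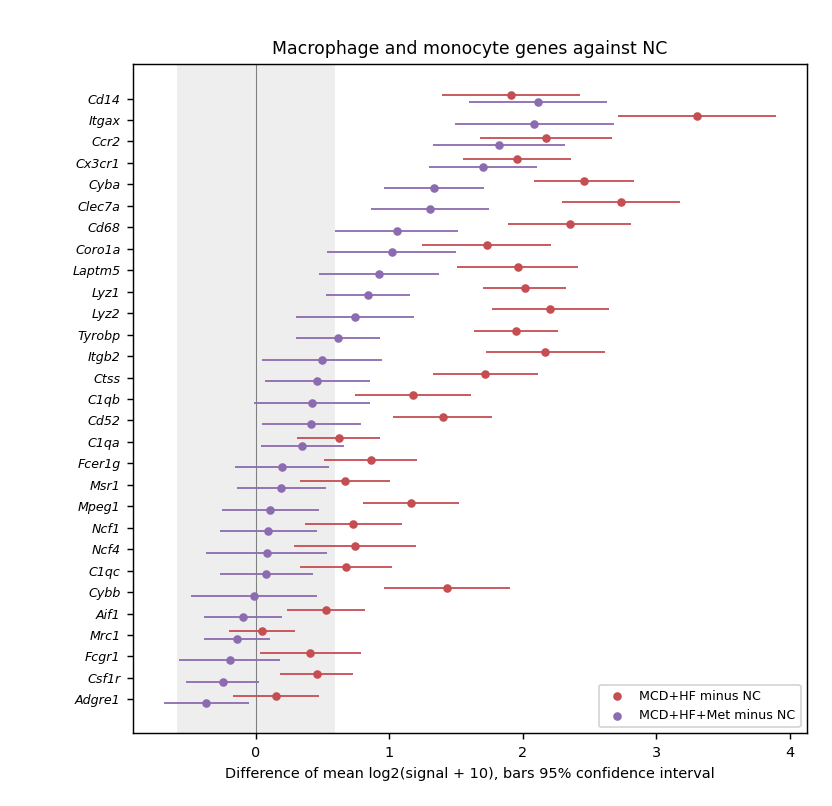
Log2 difference from NC of 29 macrophage and monocyte genes on the MCD+HF diet (red) and with metformin (purple); points are differences of means of 4 mice, bars are 95% confidence intervals, and the grey band is 1.5-fold. Both comparisons use the same NC arrays; 11 of the purple intervals lie inside the band, among them Cybb and Mpeg1, and 2 of the red ones do. Among all genes 41.7% were level with metformin and 39.2% on the diet.

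Genes of lipid-associated macrophages, which take up dead fat-laden cells, were more often called than level. Of 18, 14 were called higher, 2 lower and 2 were level (median log2 difference 1.24, against 2.27 on the diet), although hepatocytes express several of them. Their summed signal overlapped, at 32568 to 43211 in NC and 38177 to 43370 in MCD+HF+Met mice, and 2 of its members, Apoe and Fabp5, were called lower, Apoe not after quantile normalization (0.06, limma adjusted p = 0.386). Lgals3, galectin 3, had signals of 108, 117, 115 and 118 in NC and 1275, 1242, 1666 and 1788 in MCD+HF+Met mice, every treated mouse far above every chow mouse (log2 difference 3.58, standard error 0.16, limma adjusted p = 3.43e-10). Gpnmb, a glycoprotein of these cells, had signals of 4.7 to 17.3 in NC and 144 to 236 in MCD+HF+Met mice (log2 difference 3.38, limma adjusted p = 1.98e-07), against a difference of 6.39 on the diet. Mmp12, macrophage elastase, differed by 3.16 (limma adjusted p = 3.04e-06), against 5.55 on the diet.

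Kupffer cells are the resident macrophages of the liver sinusoid. Of 11 of their markers, 5 were called lower, 1 higher and 1 was level (median log2 difference -0.65), and their summed signal ranged from 6154 to 7746 in NC and from 3665 to 5468 in MCD+HF+Met mice. The list holds C6, which hepatocytes also make. Timd4, a receptor for dying cells on embryonically derived Kupffer cells, had signals of 65.3, 81.4, 43.6 and 40.2 in NC and 17.1, 14.4, 15.2 and 20.4 in MCD+HF+Met mice (log2 difference -1.30, limma adjusted p = 0.00112). Folr2, a folate receptor, differed by -1.43 (limma adjusted p = 0.00026), and Clec4f, the most restricted marker, by -0.90 (limma adjusted p = 0.0151), a call lost without MCD+HF+Met mouse 2 (adjusted p = 0.0539).

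Of 7 MHC class II genes, 0 were called and 1 was level (median log2 difference 0.25), against 5 called higher on the diet. H2-Ab1 was the level one, at 0.18 (95% interval -0.18 to 0.54), though not without any one of 4 mice. Another probe set of H2-Ab1 was neither called nor level (0.05), and a further probe set was level (0.07). Without MCD+HF+Met mouse 4, 2 of the 7 were called higher. Tnfrsf1b, a receptor of tumor necrosis factor, was level, with signals of 110 to 170 in NC and 136 to 161 in MCD+HF+Met mice, but not without NC mouse 4 (0.27) or on its other probe set (-0.19). Of 4 measured neutrophil markers, 3 were called higher (median 1.22), among them S100a8 with signals of 40.0 to 92.2 in NC and 121 to 325 in MCD+HF+Met mice (log2 difference 1.77, limma adjusted p = 0.000134). Of 14 listed neutrophil markers, 12 had a probe set naming them alone and 4 passed the filter, which a gene dim in NC could pass through the MCD+HF groups. Other defining neutrophil markers, such as Ly6g and Mpo, were not among the 4. Of 24 T and NK cell markers, 20 had a probe set naming them alone and 5 passed the filter. Of these 5, 3 were called higher, 1 lower and 1 was level.

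Interferon-stimulated genes, the antiviral program of most cells, were low. Of 33, 23 were called lower, 1 higher and 3 were level (median log2 difference -0.73, against -0.54 on the diet). Bst2, tetherin, had signals of 600, 587, 609 and 629 in NC and 192, 202, 215 and 227 in MCD+HF+Met mice, far apart with little spread (log2 difference -1.50, standard error 0.10, limma adjusted p = 3.15e-08). Irf7, the transcription factor that amplifies the program, differed by -1.29 (limma adjusted p = 3.03e-06) and Stat2, which carries its signal, by -1.32 (limma adjusted p = 3.4e-05). Usp18, which damps that signal, was called higher, with signals of 95 to 130 in NC and 169 to 198 in MCD+HF+Met mice (log2 difference 0.65, limma adjusted p = 0.000794).

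Of 30 sinusoidal and vascular markers of endothelium, 14 were level, 9 called higher and 1 lower (median log2 difference 0.11), beside 41.7% level among all genes. Stab2, the scavenger receptor of sinusoids, had signals of 307, 300, 287 and 345 in NC and 329, 281, 338 and 312 in MCD+HF+Met mice, fully overlapping (log2 difference 0.02, 95% interval -0.19 to 0.24). Clec4g, a sinusoidal lectin, was level at 0.05 (95% interval -0.19 to 0.30). Cd34, an antigen of capillaries, stood apart, with signals of 5.1 to 12.5 in NC and 47.1 to 80.5 in MCD+HF+Met mice (log2 difference 2.02, limma adjusted p = 5.74e-07), and Plvap, of fenestral diaphragms, differed by 1.04 (limma adjusted p = 9.57e-05).

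Transcripts of the respiratory chain and of AMPK, on which metformin is known to act, were level or lower in most cases. Of 33 respiratory complex I genes, 21 were level, 18 were called lower and 1 higher, 7 of the calls also being level (median log2 difference -0.29). Of 38 genes of complexes II to V, 21 were level, 29 called lower and 1 higher, 13 of them both (median -0.37). These are bright genes, and after quantile normalization 30 of the 33 and 35 of the 38 were level (medians -0.14 and -0.03). Ndufs4, an accessory subunit of complex I, had signals of 671, 726, 644 and 667 in NC and 689, 623, 577 and 845 in MCD+HF+Met mice, which overlapped (log2 difference 0.00, 95% interval -0.24 to 0.24). Ndufb11, another, was lower, with signals of 3937 to 4233 in NC and 2302 to 2577 in MCD+HF+Met mice (log2 difference -0.70, limma adjusted p = 2.46e-06). Of 14 AMPK subunits and upstream kinases, 9 were level, 2 called higher and 1 lower (median -0.11). Prkaa2, a catalytic subunit of AMPK, was level with signals of 508 to 661 in NC and 384 to 768 in MCD+HF+Met mice. Prkab2, a scaffold subunit, was called higher, at 0.70 (limma adjusted p = 0.0015), and Stk11, the kinase LKB1 upstream, was called lower and level, at -0.33 (95% interval -0.57 to -0.09, limma adjusted p = 0.0307). Without any one of 5 mice the call of Stk11 was lost. These are transcripts, and kinase activity was not measured on the arrays.

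Between MCD+HF+Met and MCD+HF livers 451 genes (4.04%) were called, 186 (1.66%) higher and 265 (2.37%) lower with metformin. Of all genes, 121 were level with NC and called against the MCD+HF diet, 60 of them higher and 61 lower than on the diet. A smaller group of 53 genes was level with NC on the diet alone and called with metformin against both, 33 higher and 20 lower. Tm6sf2, a protein of lipoprotein assembly, had signals of 81.1, 101, 88.2 and 111 in NC and 209, 215, 234 and 201 in MCD+HF+Met mice, against a mean of 107 on the diet. Every treated mouse was above every chow mouse (log2 difference from NC 1.1, limma adjusted p = 1.37e-05, and from the diet 0.95, limma adjusted p = 0.00197). Eif4ebp1, the translation repressor 4E-BP1 and a target of ATF4, had signals of 821 to 1020 in NC and 1511 to 1944 in MCD+HF+Met mice, against a mean of 1094 on the diet (log2 difference from NC 0.91, limma adjusted p = 6.07e-06). Its other probe sets had log2 differences of 0.66 (limma adjusted p = 0.000307) and -0.05 (limma adjusted p = 0.87). Pklr, liver pyruvate kinase, had signals of 182 to 271 in NC and 271 to 504 in MCD+HF+Met mice (0.81, limma adjusted p = 0.00129), and its other probe sets had 0.44 and 0.37 (limma adjusted p = 0.0388 and 0.151). Mlycd, malonyl-CoA decarboxylase, which removes an inhibitor of fat oxidation, was lower, with signals of 280 to 341 in NC and 156 to 190 in MCD+HF+Met mice (log2 difference -0.78, limma adjusted p = 6.78e-05).

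**Figure D5:**
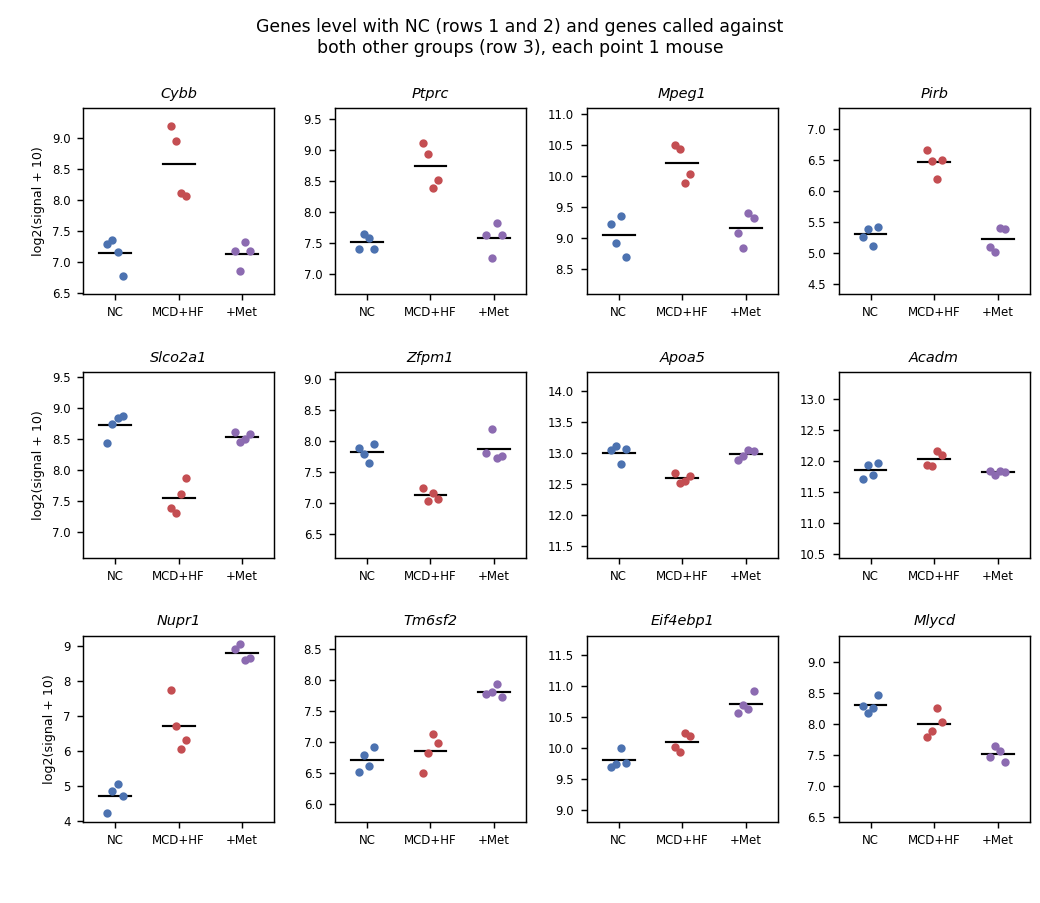
log2(signal + 10) of 12 genes; each point is 1 mouse, the black line is the mean of 4 mice, and each panel has its own vertical axis. In the upper panels MCD+HF+Met mice overlapped or neared NC (Ptprc differed by 0.07, Acadm by -0.04), and in the lowest row they stood apart from both groups (Tm6sf2 differed from NC by 1.1).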

How the data were processed

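Livers of 12 mice were profiled by the authors on Affymetrix whole-genome mouse arrays, 1 per mouse. The deposited values are signal intensities on a linear scale, which the authors obtained with the GCOS software under default settings and scaled to an average of 100; the mean of each array without 2% of probe sets in each tail was 100 here. Groups and replicate numbers came from the sample titles. Of 45101 probe sets, 64 controls were left out and 22830 with a mean signal of at least 20 over the 12 arrays were kept. Genes dim in NC could pass this filter through the MCD+HF groups, so lists of such genes lean to higher calls. Intensities plus 10 were taken to log2 and fitted with limma 3.58.1 in R 4.3.3 as 1 model of the 3 groups (lmFit, eBayes with a trend, 9 residual degrees of freedom) without further normalization, and p-values were adjusted by Benjamini-Hochberg over the 22830. The fit and the rule for level genes were tested on simulated data. Gene names came from the annotation of the platform, where 34945 had 1 symbol, 932 had several and 9160 were unnamed here; 34741 of the symbols matched RefSeq (GRCm38.p6). The brightest probe set naming a gene alone stood for it.

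The compared arrays and the gene lists were chosen with earlier results of these data known, so the lists are described by counts and medians without a test. Named genes were taken by rule: the 15 largest rises and 15 largest falls with non-overlapping groups, up to 4 rises, 4 falls and 3 level members of mean signal at least 100 per list, the 10 largest moves either way against MCD+HF among level genes, the 8 either way among genes level on MCD+HF and called against both other groups, and genes the study measured by PCR or names. Atf3, Chac1, Impact, Fads1 and Fads2 were named after their values were seen. Alternatives were offsets of 1 and 32, other filters, quantile normalization, median centring, a robust variance, a block for the replicate number, only the 2 groups, each array left out, the methods' t-test, other bounds for level genes and other probe sets. The replicate numbers did not pair the samples. The study's other experiments were not used here. Python 3.11.15 with matplotlib 3.10.9 made the figures.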

Additional observations from a re-analysis of the deposited data

Results flagged for a closer look

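In 296 groups of 4 mice tested with Dixon's criterion, 16 held a mouse far from the other 3, and chance gives about 1 in 20. In NC mice, C8a had a signal of 6264.2 in mouse 4 against at least 7487.1 in the others, Hal 1448.3 in mouse 2 against at most 1129.2, Rgs1 92.3 in mouse 2 against at most 48.7, Srebf1 1164.1 in mouse 4 against at most 825.3 and Sult1e1 20.1 in mouse 3 against at most 4.1. In MCD+HF+Met mouse 4, Cyp7b1 had 176.2 against at least 356.9, Fads3 82.6 against at most 63.6, P4hb 6763.6 against at most 5998.4 and Scd1 1323.9 against at most 352.6. In MCD+HF+Met mouse 3, Cyp4a12a had 124.8 against at least 137.9 and Timp1 74.0 against at most 47.8. In MCD+HF+Met mouse 2, Dgat2 had 2333.6 against at most 2083.1, Evi2a 30.1 against at least 45.7 and Zfpm1 284.5 against at most 214.3. In MCD+HF+Met mouse 1, Sdf2l1 had 9.0 against at least 19.3 and Sqle 1100.5 against at most 485.1.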

How the results depend on the processing

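The number of level probe sets followed the definition: against 9071, there were 13743 with an offset of 32, 16295 without the filter, 5268 with a 99% interval, 1324 with the tighter and 17619 with the wider bound. Of the probe sets called higher or lower on the MCD+HF diet, 15% and 22.6% were level with metformin, 30.4% and 34.3% with an offset of 32, and 7.28% and 13.8% with a 99% interval. The methods' t-test, at p under 0.05 and over 1.5-fold, called 5258 probe sets (3082 higher and 2176 lower). The GCOS change calls that the methods also required were not applied. After Benjamini-Hochberg, without the fold threshold, the t-test called 6802. Without single arrays limma called 7917 to 8974. The replicate numbers did not pair the samples: correlations of same-numbered deviations were 0.047, -0.047, -0.026 and -0.134, and with the replicate number as a block 8978 probe sets were called, Hgf gained its call (adjusted p = 0.024) and Igfbp3 lost it (0.0658). Quantile normalization moved list medians to -0.47 for cytochromes P450, -0.49 for conjugating enzymes, -0.68 for bile acid synthesis, 0.35 for fatty acid oxidation, -0.56 for amino acid breakdown, -0.26 for the urea cycle, -1.07 for complement, -0.37 for coagulation, -0.014 for carriers, -2.02 for male-typical genes, -0.14 for complex I, -0.032 for complexes II to V, 0.14 for iron and -0.037 for hepatocytes. Median centring gave -0.87 for conjugating enzymes, 0.47 for triglyceride assembly and -0.19 for iron. The median over all probe sets of a gene gave -0.53 for conjugating enzymes, -1.09 for complement, 2.30 for female-typical genes and 0.70 for the stress response. An offset of 1 gave 2.99 for female-typical genes, 1.53 for lipid-associated macrophages and 2.30 for both ductular and oncofetal genes. An offset of 32 gave 2.21 for female-typical genes, 0.71 for the cell cycle, 0.62 for fibrogenic signalling, 0.87 for lipid-associated macrophages and 1.46 for oncofetal genes. A filter at 50 gave -0.57 for the methionine cycle, 3.23 for female-typical genes, 1.45 for collagens, 0.62 for fibrogenic signalling, 1.28 for stellate cells and 2.5 for ductular genes. Without single arrays the medians ranged from -0.85 to -0.68 for cytochromes P450, -0.80 to -0.67 for conjugating enzymes, -1.06 to -0.95 for bile acid synthesis, -0.118 to -0.009 for AMPK, 1.11 to 1.46 for lipid-associated macrophages and -0.155 to -0.027 for iron. Reversed single genes were Apob (0.19), Cyp2e1 (0.16) and Apoe (0.056) after quantile normalization, and on another probe set Atf6 (-0.19), Ccr2 (-0.13), Eif4ebp1 (-0.051) and Fn1 (0.027). Of 3203 values over 148 genes, 3083 kept their direction and side of the threshold or their value. The causes were not tested.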

Other observations

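Iron genes differed in both directions. Of 17 genes of iron metabolism, 5 were called higher, 5 lower and 6 were level, with a median log2 difference of -0.11 that became 0.14 after quantile normalization. Among all genes 25.6% were called higher, 18.7% lower and 41.7% were level, so calls in both directions were also common outside this list. Tfrc, the transferrin receptor for iron uptake, had signals of 168, 230, 121 and 191 in NC and 601, 675, 766 and 781 in MCD+HF+Met mice, all treated mice above all chow mice (log2 difference 1.96, limma adjusted p = 1.63e-06). Tfr2, a sensor of plasma iron in hepatocytes, was lower, at a log2 difference of -1.26 (limma adjusted p = 8.88e-06). Hamp, the iron hormone hepcidin, had signals of 3971 to 11358 in NC and 1146 to 3650 in MCD+HF+Met mice, which did not overlap (log2 difference -1.84, limma adjusted p = 0.000604).

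Acute phase proteins, which the liver secretes in inflammation, also differed in both directions. Of 26, 5 were called higher, 9 lower and 2 were level (median log2 difference -0.44). After quantile normalization 5 were higher, 7 lower and 5 level (median -0.11). Among all genes 25.6% were called higher and 18.7% lower. Saa1, serum amyloid A, had signals of 4597, 6462, 10596 and 947 in NC and 199, 117, 260 and 452 in MCD+HF+Met mice (log2 difference -4.12, limma adjusted p = 4.05e-05), so it varied widely among chow mice and was low in every treated one. Saa2 differed by -3.58 (limma adjusted p = 0.000274). Lcn2, the iron-siderophore binder lipocalin 2, went up, with signals of 386, 236, 1389 and 72.3 in NC and 3594, 1382, 2551 and 8234 in MCD+HF+Met mice, overlapping through NC mouse 3 (log2 difference 3.30, limma adjusted p = 0.000701). NC mouse 3 had the highest signal of its group for Saa1, Saa2 and Lcn2.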
